A study of Mus musculus with 26 samples.

Results

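Nuclei of Csf1r-null cortex were compared with nuclei of wild-type cortex at E15.5 in the arm of the study without immune activation, in which the mothers had received saline. The labels chose the libraries by genotype, treatment and tissue, and 4 of the 26 libraries of the series, of which 8 hold cortical nuclei, belong to this comparison: wild-type 1 and 2 and Csf1r-null 1 and 2, named by genotype and replicate number. They hold 21312 of the 43456 nuclei with at least 500 unique molecular identifiers (UMIs, each counting 1 captured RNA molecule) and 200 genes. All 4 came from male embryos on the C57Bl/6N strain whose dams were given intraperitoneal saline at E12.5, and the other 4 libraries of nuclei came from the same genotypes after maternal immune activation (MIA) by Poly(I:C), which mimics viral RNA. The Csf1r-/- allele is present in every cell of the embryo, blood and meninges included. By the study's sample table a library of replicate 1 holds a single embryo and a library of replicate 2 a pooled pair. Wild-type and null embryos were littermates, from 4 pregnant dams over both treatments. Embryos of both genotypes may therefore share a dam.

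CSF1R is a receptor tyrosine kinase on microglia and other macrophages. Its ligands CSF1 and IL34 keep these cells alive, and it signals through adaptors such as GRB2 and the kinases SYK and LYN, while the factors PU.1 (Spi1), IRF8 and RUNX1 set the fate of the lineage. Microglia enter the cortex early in its development and are a small minority of its cells, so in RNA summed over all nuclei their genes are read from few molecules, and fewer cells of a type cannot be told apart from less RNA per cell.

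The 4 libraries held 4691, 4652, 6008 and 5961 nuclei in the order wild-type 1 and 2 and Csf1r-null 1 and 2, with 12949108, 12055377, 14584518 and 9897721 UMIs. The median nucleus held 2443, 2306.5, 2036.5 and 1469 UMIs, so the library labelled Csf1r-null 2 was the shallowest. Between 3 and 11 cell barcodes were shared by any pair of these libraries. The sample titles give no sex, but the study states that male embryos were used. All 4 libraries held RNA of the Y-linked Eif2s3y, with 1911 to 3381 UMIs. By itself this gene does not tell whether a pooled pair also held a female. Libraries of the same label differed from each other. Microglial genes were present in the library labelled Csf1r-null 2 at the wild-type level, and genes of the developing striatum, the structure beneath the cortex, were abundant in wild-type 1 alone, and further differences of these libraries are given where they were seen. The leading lists are therefore given within each replicate number and without each of these libraries. The replicate number also stands for the software version, gene list and barcode list of the deposited files, and was a term in the model.

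The targeted gene was measured by few molecules. Wild-type 1 and 2 held 23 and 11 UMIs of Csf1r, Csf1r-null 1 held 4 and 10 were found in the library labelled Csf1r-null 2. As counts per 1000000 UMIs of the library (CPM) these were 1.78 (exact Poisson 95% interval 1.13 to 2.68), 0.925 (0.462 to 1.66), 0.276 (0.0751 to 0.705) and 1.03 (0.493 to 1.89) CPM. Csf1r-null 1 was thus below both wild-type libraries, and the library labelled Csf1r-null 2 lay between them. Over the pairs the log2 change of -1.12 ± 0.854 (SE) did not pass the test (edgeR quasi-likelihood test, adjusted p = 0.618). Which exons the allele lacks is not given in the sources used here, so that residual UMIs do not by themselves tell an intact from a null gene. Intervals on counts cover counting error only.

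The 16 microglial genes separated the 2 libraries labelled null from each other rather than null from wild type. Summed, they had 477 and 217 UMIs in wild-type 1 and 2, 16 in Csf1r-null 1 and 167 in the library labelled Csf1r-null 2, or 37.0 (33.7 to 40.5), 18.2 (15.9 to 20.8), 1.10 (0.630 to 1.79) and 17.2 (14.6 to 20.0) CPM. Within replicate 1 the sum was 33.6-fold lower in the null library, whereas within replicate 2 the null to wild-type ratio was 0.940. The wild-type libraries averaged 27.6 ± 13.3 CPM (SD, n = 2) and those labelled null 9.13 ± 11.3 CPM. The log2 ratios of the sums were -5.07 in replicate 1 and -0.089 in replicate 2. Without nuclei of 2 or more UMIs of interneuron and striatal genes they were -3.71 and -0.39. In barcodes below the nucleus filter, listed in number for replicate 1 alone, the sum was 49.9 CPM in wild-type 1 and 9.37 CPM in Csf1r-null 1. With 2 libraries a group the smallest two-sided exact permutation p is 0.3333, so no single value can pass a threshold of 0.05 by permutation.

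**Figure D1:**
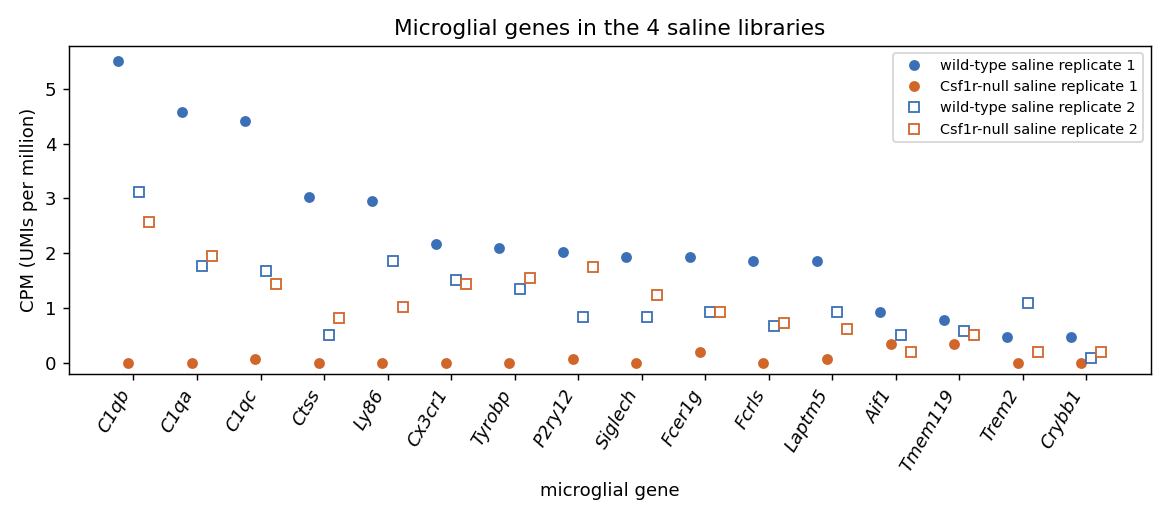
CPM (vertical axis) of each of the 16 microglial genes (horizontal axis) in the 4 saline libraries, with wild type in blue, null in orange, replicate 1 as filled circles and replicate 2 as open squares. In Csf1r-null 1 every gene is at or below 0.344 CPM, while the library labelled Csf1r-null 2 lies within or just below the wild-type values for most genes.

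The low counts in Csf1r-null 1 ran through the complement genes, the receptors and the lysosomal and signalling genes of the list. C1qb, a chain of the complement starter C1q that microglia secrete, had 71 and 37 UMIs in wild-type 1 and 2, 0 in Csf1r-null 1 and 25 in the library labelled Csf1r-null 2. C1qa had 59, 21, 0 and 19 UMIs and C1qc 57, 20, 1 and 14. All 3 chains thus had at most 1 UMI in Csf1r-null 1. The fractalkine receptor Cx3cr1 had 28, 18, 0 and 14 UMIs, and the ADP receptor P2ry12, with which microglia sense injury, 26, 10, 1 and 17. Tyrobp, the adaptor of TREM2, had 27, 16, 0 and 15 UMIs, and the lysosomal protease gene Ctss 39, 6, 0 and 8. Of the remaining members, Ly86, Siglech, Fcrls, Trem2 and Crybb1 were also at 0 in Csf1r-null 1, whereas Tmem119 (10, 7, 5 and 5 UMIs) and Aif1 (12, 6, 5 and 2 UMIs) kept some. A count of 0 in Csf1r-null 1 allows up to 0.207 CPM, taken as 3 counts of the library.

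In the model 13 of the 16 members had enough counts to be tested and none passed at an adjusted p under 0.05 (edgeR), where 0.0138% of the 14509 genes tested did. At an unadjusted p under 0.05, 1 of the 13 was lower, which is the share of all genes (7.68%). It was Laptm5, a lysosomal membrane protein gene of immune cells (24, 11, 1 and 6 UMIs, log2 change -2.18 with a standard error of 0.915, edgeR), and no DESeq2 adjusted p of a member passed either. The median log2 change of the 13 was -1.78, beside 0.00041 over all genes. All 13 were lower in replicate 1, where 53.4% of all genes were, and 6 of 13 in replicate 2, where 42.3% of all genes were, by log2 ratios with a pseudocount of 0.5 UMI. In 7 of the 13 both libraries labelled null were below both wild-type libraries, as in 18.5% of all genes. By plain CPM Fcer1g, an Fc receptor chain gene, was lower in replicate 2 too, at 0.924 against 0.925 CPM, and counts among the 7. Without Csf1r-null 1, 0 of 14 members were lower at an unadjusted p under 0.05, and without wild-type 1, 1 of 13, beside 6.3% and 7.03% of all genes (edgeR). Without the library labelled Csf1r-null 2 it was 13 of 15, beside 3.48% of all genes, with none passing after adjustment, but that library was set apart by these same genes, so that this count is a description and no test. A lone library of a group was in these fits assumed to vary like the other groups.

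Single nuclei showed the same split. Nuclei with at least 3 UMIs of the microglial list numbered 11 and 8 among the 4691 and 4652 nuclei of the wild-type libraries, 0 among the 6008 of Csf1r-null 1 and 7 among the 5961 of the library labelled Csf1r-null 2. These are shares of 0.234% (Clopper-Pearson 95% interval 0.117 to 0.419%), 0.172% (0.0743 to 0.339%), 0% with an upper limit of 0.0499% from 3 counts, and 0.117% (0.0472 to 0.242%). Among nuclei with 2 or more UMIs of the cortical excitatory genes Tbr1 and Fezf2, which should lack microglial RNA, there were none with at least 3 microglial UMIs in any of the 4 libraries, of 778, 1202, 1312 and 916 such nuclei with median depths of 3788.5, 3114, 3343.5 and 2213 UMIs. These counts of 0 allow up to 0.386%, 0.250%, 0.229% and 0.328%, which is no lower than the shares of all nuclei, so a lower background could not be shown at this depth. With at least 2 microglial UMIs the shares of all nuclei were 0.512%, 0.322%, 0.0166% and 0.201% and those of the excitatory nuclei 0.386%, 0.0832%, 0% and 0.218%. After each nucleus was thinned to 1000 UMIs, which left out 229, 195, 1011 and 1476 shallower nuclei, 8, 6, 0 and 5 nuclei still had at least 3. The MIA libraries held a further departure from the labels. The microglial sum was 16.7 CPM in wild-type MIA 1 but 1.82 CPM in the library labelled wild-type MIA 2, close to the 0.676 and 1.64 CPM of Csf1r-null MIA 1 and 2.

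Neither Csf1r nor any tested gene of the CSF1R pathway list passed. A few genes of the macrophage lineage, at low counts, had the pattern of the microglial list. The ligand gene Csf1 was at 4.96 and 5.30 CPM in wild-type 1 and 2 and 6.96 and 6.16 CPM in Csf1r-null 1 and the library labelled Csf1r-null 2, a log2 change of 0.34 ± 0.232 (SE) that did not pass (edgeR, adjusted p = 0.569). Il34 had 1 to 3 UMIs per library, too few to compare. The adaptor genes Grb2 (log2 change -0.23), Sos1 (0.07) and Gab2 (0.47) and the ubiquitin ligase gene Cbl (0.21) were tested with none passing, and of the 8 of 15 members tested only Gab2 had an unadjusted p under 0.05 (higher, adjusted p = 0.390, edgeR), where 4.37% of all genes did in that direction. Of the 8, 5 were higher in null in both replicate numbers, as were 31.7% of all genes. Syk, the kinase gene, had 7, 7, 0 and 6 UMIs in the usual order, the lineage factor gene Runx1 14, 5, 0 and 6, and the lipid phosphatase gene Inpp5d 19, 5, 0 and 8. These 3 were at 0 in Csf1r-null 1 alone. The pattern was not shared by Irf8, which had 13, 9, 6 and 3 UMIs, or by Spi1, with 4, 0, 0 and 1, and the kinase gene Lyn, with 107, 69, 127 and 121 UMIs, was not lower in either library labelled null.

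The genes beside Csf1r were also measured, since a targeted allele can carry flanking sequence of the strain it was made in. Of 15 neighbours 10 were tested and none had an unadjusted p under 0.05 (edgeR), where 12.1% of all genes did. Dctn4, a dynactin subunit gene, was at 265 and 243 CPM in wild-type 1 and 2 and 158 and 264 CPM in Csf1r-null 1 and the library labelled Csf1r-null 2, so that it was low in Csf1r-null 1 alone. Pdgfrb, the pericyte receptor gene, was at 7.99, 4.71, 4.27 and 6.37 CPM, with the groups overlapping.

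Other cells that could reach the sample gave few molecules. Border macrophage genes summed to 3.88 and 2.19 CPM in wild-type 1 and 2 and 2.14 and 2.05 CPM in Csf1r-null 1 and the library labelled Csf1r-null 2. Mrc1, their mannose receptor gene, had 10 and 2 UMIs in the wild-type libraries and 0 in both labelled null, and Lyve1 and Cbr2 had none in any. The 2 members tested differed in direction, the scavenger receptor gene Stab1 with 26, 20, 8 and 10 UMIs (log2 change -1.29) and F13a1, of coagulation factor XIII, with 11, 2, 21 and 6 UMIs (1.03), and neither had an unadjusted p under 0.05 (edgeR). Meningeal fibroblast genes were at 5.27 and 8.49 CPM in wild-type 1 and 2 and at 2.41 and 2.16 CPM in Csf1r-null 1 and the library labelled Csf1r-null 2. Of the 3 of 6 members tested, the collagen genes Col1a1 (12, 20, 4 and 2 UMIs) and Col1a2 (27, 26, 8 and 9 UMIs) were lower at an unadjusted p under 0.05, where 7.68% of all genes were, with adjusted p of 0.282 and 0.281 (edgeR). With the library labelled Csf1r-null 2 or wild-type 1 left out, 5 members were tested. A gene then passes the count filter on 1 library, so counts of lower members in those fits are no test. After removal of doublets 0 of 2 members tested were lower at an unadjusted p under 0.05, beside 7.87% of all genes. The median log2 change of the list then went from -1.59 to -0.70. Endothelial genes had 50 to 117 UMIs per library, with 9.07 and 4.20 CPM in wild-type and 6.89 and 11.7 CPM in libraries labelled null, and pericyte genes 18.5, 17.9, 13.2 and 14.9 CPM. Of 5 endothelial members tested, 1 was higher at an unadjusted p under 0.05 (edgeR), where 4.37% of all genes were. Their median log2 ratio was -0.48 in replicate 1 and 2.48 in replicate 2. No member of the endothelial or pericyte list had an adjusted p under 0.05.

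The only genes that passed the test over all libraries were the pair that encodes adult alpha-globin, the chain that joins beta-globin in the hemoglobin of red blood cells. Hba-a1 was at 161 and 93.5 CPM in wild-type 1 and 2 and at 47.2 and 35.4 CPM in Csf1r-null 1 and the library labelled Csf1r-null 2. Its log2 change was -1.61 ± 0.156 (SE, edgeR quasi-likelihood test, adjusted p = 0.0121). Hba-a2 was at 117, 75.0, 33.4 and 30.0 CPM, a log2 change of -1.59 ± 0.147 with the same adjusted p. Both fell in both replicate numbers, by 1.77 and 1.40 and by 1.81 and 1.32 on the log2 scale in replicate 1 and replicate 2.

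The copies lie on chromosome 11 of GRCm38 (mm10), and the bases before their starts are shown. How well counted reads tell the copies apart was not tested. The RefSeq table (GRCm38.p6) gives the 250 bases before each start, on the plus strand at chr11:32283422-32283671 for Hba-a1 and chr11:32296242-32296491 for Hba-a2, with a CCAAT box and a CCACCC box in capitals.
Hba-a1: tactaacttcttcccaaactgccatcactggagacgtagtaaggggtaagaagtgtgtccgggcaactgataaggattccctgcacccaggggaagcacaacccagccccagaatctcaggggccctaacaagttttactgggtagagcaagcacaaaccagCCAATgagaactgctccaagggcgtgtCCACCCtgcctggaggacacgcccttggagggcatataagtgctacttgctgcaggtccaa
Hba-a2: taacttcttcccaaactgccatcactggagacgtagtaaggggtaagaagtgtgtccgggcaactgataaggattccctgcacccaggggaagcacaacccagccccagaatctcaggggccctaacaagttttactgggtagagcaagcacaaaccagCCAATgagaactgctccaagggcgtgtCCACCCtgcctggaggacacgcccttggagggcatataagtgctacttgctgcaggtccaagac
After a shift of the frame the windows matched at 247 of 247 aligned bases. The transcripts, of 699 and 554 bases, matched at 537 of the 538 bases that aligned (99.81%). CCAAT was found, on either strand, in 33.85% and CCACCC in 28.08% of the 32851 windows of the same table, so a match alone describes the letters and no more. Summed, the copies had 278 and 169 CPM in wild-type 1 and 2 and 80.7 and 65.4 CPM in Csf1r-null 1 and the library labelled Csf1r-null 2.

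**Figure D2:**
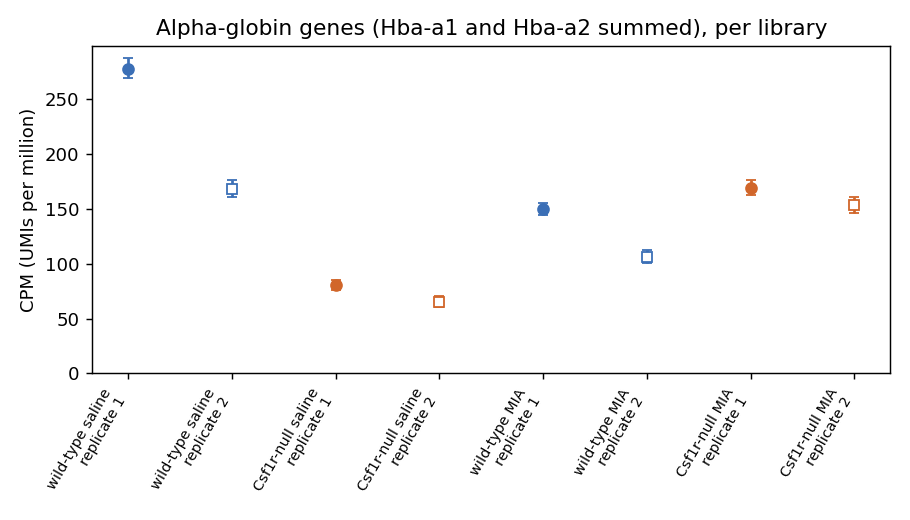
Summed CPM of Hba-a1 and Hba-a2 (vertical axis, with exact Poisson 95% intervals) in all 8 libraries of nuclei, with wild type in blue and null in orange. The 2 libraries labelled Csf1r-null saline, at 80.7 and 65.4 CPM, are the lowest, below the 106 to 169 CPM of the MIA libraries and the 278 and 169 CPM of wild-type saline.

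The other adult globins pointed the same way, and the embryonic ones did so in replicate 1 only. Hbb-bs was at 187 and 154 CPM in wild-type 1 and 2 and 88.4 and 72.8 CPM in the libraries labelled null (log2 change -1.08 ± 0.320 SE, edgeR, adjusted p = 0.282). Hbb-bt was at 70.3, 55.9, 28.2 and 25.3 CPM (log2 change -1.25 ± 0.265 SE, edgeR, adjusted p = 0.222). In both genes the 2 libraries labelled null lay below both wild-type ones, as in 18.5% of all genes. In this fit both passed only before adjustment. Hbb-bt passed in the 4 saline libraries alone with the replicate term (adjusted p = 0.0266, edgeR), without a filter on low counts (0.0118, edgeR) and with DESeq2 (0.00495). Without wild-type 2 its log2 change was -1.55. Hbb-y, the beta-type globin of the primitive red cells of the yolk sac, was at 6.20 and 4.63 CPM in wild-type 1 and 2, 2.82 CPM in Csf1r-null 1 and 38.3 CPM in the library labelled Csf1r-null 2. Across the MIA libraries it was at 46.4 CPM in wild-type MIA 1, 4.20 CPM in the library labelled wild-type MIA 2, and 83.7 and 73.9 CPM in Csf1r-null MIA 1 and 2. The library labelled Csf1r-null 2 was thus the highest saline library, nearest to the 3 high MIA libraries, and the library labelled wild-type MIA 2 was the only MIA library within the range of the other 3 saline libraries. Hba-x, the embryonic alpha-type globin, was at 1.78, 1.68, 0.482 and 5.55 CPM in the 4 saline libraries and between 10.3 and 46.8 CPM in the MIA libraries.

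The 7 hemoglobin genes together were at 543 and 385 CPM in wild-type and 201 and 207 CPM in libraries labelled null, a mean of 464 ± 112 against 204 ± 4.76 CPM (SD, n = 2). Of 6 tested, 2 passed and 4 were lower at an unadjusted p under 0.05 (edgeR), where 7.68% of all genes were. In barcodes below the nucleus filter, which were listed in number for replicate 1 alone (714331 and 766211 barcodes, against 1 and 12 in replicate 2) and which hold RNA free of nuclei, the same genes made up 1380 CPM in wild-type 1 and 1231 CPM in Csf1r-null 1, a ratio nearer to 1 than that of the 543 and 201 CPM inside nuclei. The part of free RNA in the difference was not tested. Without wild-type 1, 2 of 6 passed and 3 were lower at an unadjusted p under 0.05, and without the library labelled Csf1r-null 2 none passed and 4 were (edgeR), beside 7.03% and 3.48% of all genes lower in these fits. The calls did not hold in all fits. Without Csf1r-null 1 the log2 changes of Hba-a1 and Hba-a2 were -1.59 and -1.49 with an edgeR adjusted p of 0.542 for both. Without the library labelled Csf1r-null 2 they were -1.62 and -1.69 with edgeR adjusted p of 0.137 and 0.0936, and without the replicate term -1.62 and -1.60 with 0.752 and 0.399.

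The change of the genotype effect with treatment was tested as an interaction in the same model. It passed for 2 of the 14509 genes, again Hba-a1 and Hba-a2. Summed alpha-globin was 150 and 106 CPM in wild-type MIA 1 and the library labelled wild-type MIA 2, and 169 and 154 CPM in Csf1r-null MIA 1 and 2. The genotype difference after saline minus that after MIA was -2.07 for Hba-a1 and -1.93 for Hba-a2 on the log2 scale (edgeR, adjusted p = 0.0248 for both). Both comparisons rest in part on a library whose microglial genes go against its label and whose Hbb-y differs from the other library of its group. By Hba-x every MIA library lay above every saline library, with the library labelled Csf1r-null 2 the highest of the saline ones. Whether the 2 libraries were exchanged was not tested, and an exchange would change which libraries these values compare. Without the library labelled wild-type MIA 2, or without that labelled Csf1r-null 2, no gene passed this test.

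Genes of the proteasome, the protease complex that degrades tagged proteins, were lower in both replicate numbers, by amounts that varied among members. Their sum was 5179 and 5460 CPM in wild-type 1 and 2 and 4166 and 4045 CPM in Csf1r-null 1 and the library labelled Csf1r-null 2, a mean of 5320 ± 199 against 4106 ± 85.8 CPM (SD, n = 2). All 31 members were lower in both replicate numbers, where 27.4% of all genes were, and the median log2 change was -0.41, with a range of -0.73 to -0.096. At an unadjusted p under 0.05, 22 of 31 were lower, where 7.68% of all genes were, and none higher, and none passed after adjustment, the lowest edgeR adjusted p being 0.250. Psmb6, which encodes a catalytic beta subunit, was at 239, 257, 165 and 152 CPM, and Psma6, of the outer alpha ring, at 157, 181, 109 and 97.1 CPM. Psma7 was at 302, 353, 243 and 231 CPM, and the most abundant member, Psma3, at 390, 418, 363 and 402 CPM, where the groups overlapped. Without the library labelled Csf1r-null 2 the median was -0.31 with 2 of 31 lower at an unadjusted p under 0.05, beside 3.48% of all genes in that fit. Without wild-type 2 it was -0.35 with 7 of 31, beside 7.26%, and without wild-type 1 -0.44 with 16 of 31, beside 7.03% (edgeR).

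Genes of oxidative phosphorylation, which make ATP in mitochondria, were lower mainly in replicate 2. They summed to 12950 and 15621 CPM in wild-type 1 and 2 and 11935 and 10952 CPM in libraries labelled null. The median log2 ratio was -0.18 in replicate 1 and -0.56 in replicate 2, and 58 of 76 members were lower in both, as were 27.4% of all genes. In the model 29 of 76 were lower at an unadjusted p under 0.05, where 7.68% of all genes were, and none passed after adjustment (edgeR, lowest adjusted p 0.198). Uqcrc1, a core subunit gene of complex III, was at 100 and 93.8 CPM in wild-type and 68.3 and 56.1 CPM in libraries labelled null, and Atp5b, the catalytic subunit gene of ATP synthase, at 353, 330, 251 and 223 CPM. Cox7c, of cytochrome oxidase, was at 537, 667, 624 and 643 CPM, with overlapping groups. Without the library labelled Csf1r-null 2 the median was -0.18 with 3 of 76 lower at an unadjusted p under 0.05, about the 3.48% of all genes in that fit, and without wild-type 1 it was -0.53 with 46 of 76, beside 7.03% (edgeR).

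Ribosomal protein genes had opposite signs in the 2 replicate numbers. They made up 37549 and 53439 CPM in wild-type 1 and 2 and 45992 and 41431 CPM in libraries labelled null, with median log2 ratios of 0.28 and -0.42, and 62 of 77 tested differed in sign between the replicate numbers, whereas 59.1% of all genes had the same sign. Transcripts of the mitochondrial genome were also opposite, at 142, 311, 348 and 216 CPM. In the barcodes below the filter of replicate 1 all 4 of these RNA groups were richer than in nuclei. Relative to nuclei the wild-type and null ratios were 1.49 and 2.19 for the proteasome, 2.48 and 2.91 for oxidative phosphorylation, 3.67 and 2.71 for ribosomal proteins and 2.54 and 6.14 for hemoglobin. The part of RNA from outside nuclei in these differences was not tested.

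**Figure D3:**
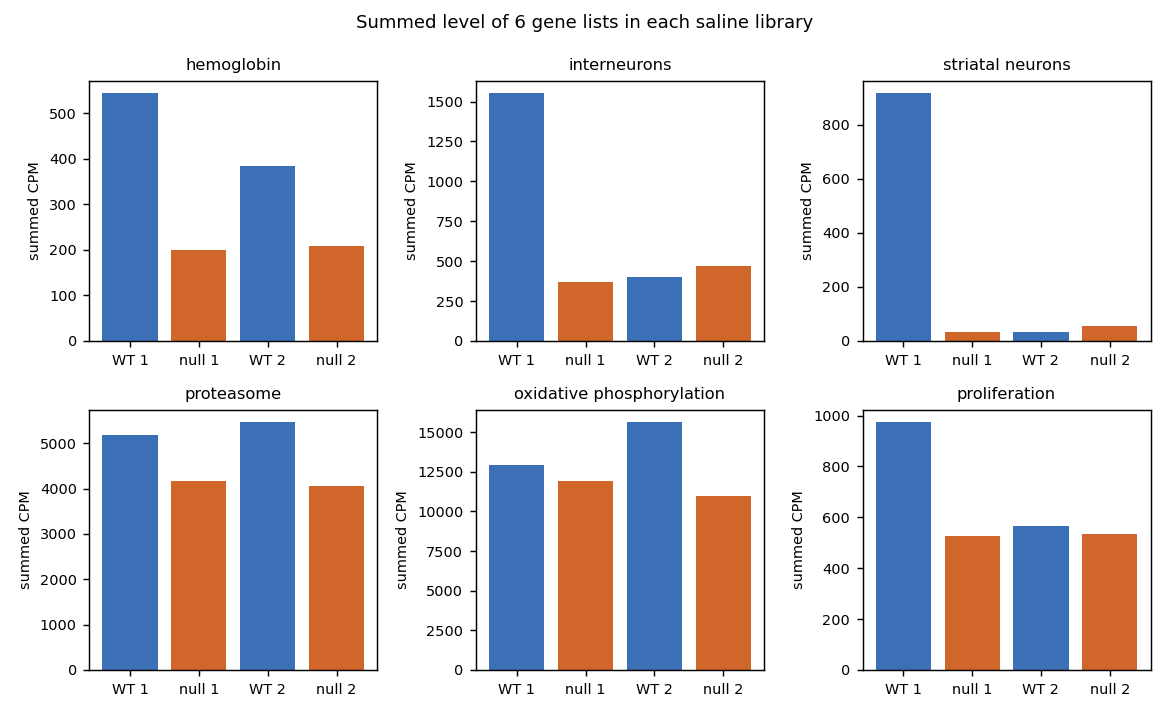
Summed CPM (vertical axes, starting at 0) of 6 gene lists in each saline library, wild type (WT) in blue and null in orange, by replicate number. Hemoglobin, proteasome and oxidative phosphorylation genes are lower in both libraries labelled null, while interneuron, striatal and proliferation genes are high in wild-type 1 alone.

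Genes of GABAergic neurons set wild-type 1 apart from every other library. Interneuron genes summed to 1551 CPM in wild-type 1 and to 400, 371 and 469 CPM in wild-type 2, Csf1r-null 1 and the library labelled Csf1r-null 2. Striatal genes summed to 916 CPM in wild-type 1 and to 32.8, 31.4 and 55.3 CPM in the others, and to between 26.4 and 33.3 CPM in the 4 MIA libraries. Ebf1, a transcription factor gene of striatal projection neurons, was at 708 CPM in wild-type 1 and 11.4, 7.71 and 30.8 CPM in the other saline libraries. Isl1, needed for the striatonigral neurons, had 920 UMIs in wild-type 1 and 2, 1 and 5 in the others, and Six3 had 914 UMIs against 1, 2 and 12. The genes with the lowest null to wild-type ratios within replicate 1, among those with 100 or more UMIs in that pair, included Isl1, Six3, Zfp503, Gsx2 and Ebf1, known from the striatum and its progenitors, and also Gm39244 and Slit3. None of those named was lower in replicate 2.

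The same held per nucleus. Nuclei with at least 2 UMIs of the interneuron and striatal lists made up 38.3% of wild-type 1 and 10.2%, 8.44% and 10.1% of the others, or 30.5%, 6.87%, 5.42% and 7.85% after thinning to 1000 UMIs. Among nuclei with 2 or more UMIs of Tbr1 and Fezf2 the shares were 19.7%, 7.07%, 7.77% and 7.75%. Whether these UMIs came from free RNA, doublets or the nuclei themselves was not tested. In the model 8 of 16 interneuron and 5 of 6 striatal genes were lower at an unadjusted p under 0.05, where 7.68% of all genes were, and none passed (edgeR), with medians of -1.30 and -1.85. Within replicate 2 these medians were 0.36 and 0.11. Without wild-type 1, 2 of 16 and 0 of 6 were lower at an unadjusted p under 0.05, beside 7.03% of all genes (edgeR). Without the library labelled Csf1r-null 2, 17 and 11 members were tested, since a gene then passes the count filter on 1 library. Striatal genes were high in wild-type 1 alone, so counts of lower members in that fit are no test. The 2 interneuron genes lower without wild-type 1 were lower in both replicate numbers with all libraries too: Sst, the gene of the peptide somatostatin, at 44.8, 44.8, 20.7 and 24.9 CPM, and Npy, of neuropeptide Y, at 80.3, 47.1, 22.7 and 29.4 CPM (adjusted p = 0.352 and 0.284, edgeR). These were the only 2 of 16 members in which both libraries labelled null lay below both wild-type ones, a smaller share than the 18.5% of all genes.

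Cell cycle genes were highest in wild-type 1. They summed to 973 CPM in wild-type 1 and 565, 526 and 534 CPM in the others. All 15 were lower in replicate 1, where 53.4% of all genes were, and 10 in replicate 2, where 42.3% were. The 10 were thus lower in both, as were 27.4% of all genes, and in 8 both libraries labelled null lay below both wild-type ones, as in 18.5% of all genes. At an unadjusted p under 0.05, 10 of 15 were lower, beside 7.68% of all genes, with none passing (edgeR). Without wild-type 1 this was 2 of 15, beside 7.03%, and without the library labelled Csf1r-null 2, 14 of 15, beside 3.48%. Mki67, the proliferation marker, was at 142, 61.1, 79.4 and 73.6 CPM and Top2a, a topoisomerase of dividing cells, at 207, 108, 110 and 113 CPM. Of 8 apical progenitor genes, those of the stem cells that line the ventricle, 2 were lower in both replicate numbers, near the 27.4% of all genes, and 5 had opposite signs. At an unadjusted p under 0.05, 3 of 8 were lower, beside 7.68% of all genes, and the median log2 change was -0.28 (edgeR). Without wild-type 1 it was 2 of 8, beside 7.03%, and the median turned to 0.080. Fabp7 (523, 312, 206 and 204 CPM, log2 change -1.03 ± 0.225 SE) and Vim (219, 174, 118 and 127 CPM, -0.69 ± 0.140 SE) were the 2 lower in both, at edgeR adjusted p of 0.229 and 0.198. Both passed with DESeq2 (adjusted p = 0.0032 and 0.0206) and in edgeR without a filter on low counts (0.0175 and 0.0429). Pax6, the regulator of these cells, was at 155, 141, 134 and 205 CPM, and Sox2 at 200, 66.4, 59.6 and 79.1 CPM, high in wild-type 1 alone.

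No gene of the excitatory lineage passed the test. Callosal projection neuron genes summed to 662 and 425 CPM in wild-type 1 and 2 and 715 and 530 CPM in libraries labelled null. Of 4 tested, 1 was higher at an unadjusted p under 0.05, where 4.37% of all genes were (edgeR, lowest adjusted p 0.292). Intermediate progenitor genes summed to 646 and 541 CPM in wild-type 1 and 2 and 592 and 634 CPM in libraries labelled null. Bcl11b, of subcerebral neurons, was at 496, 384, 465 and 389 CPM, Tle4 at 574, 626, 621 and 604 CPM and Tbr1 at 127, 190, 170 and 208 CPM, all with overlapping groups. The 4 corticothalamic genes summed to 974.6 and 997.1 CPM in wild-type 1 and 2 and 1037 and 1056 CPM in libraries labelled null. The 4 genes of migrating neurons summed to 772 and 761 against 1084 and 855 CPM. The groups did not overlap in either sum. In each list 1 of 4 members had both libraries labelled null above both wild-type ones, as had 2244 of the 14509 genes tested. No member of these 2 lists had an unadjusted p under 0.05 (edgeR), where 4.37% of all genes were higher. Cntn2, an adhesion molecule gene of migrating neurons, was at 307 and 391 CPM in wild-type and 486 and 445 CPM in libraries labelled null (log2 change 0.38 ± 0.207 SE, edgeR, adjusted p = 0.489). Reln, secreted by Cajal-Retzius cells to guide migration, was at 34.7, 46.6, 52.8 and 46.3 CPM.

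**Figure D4:**
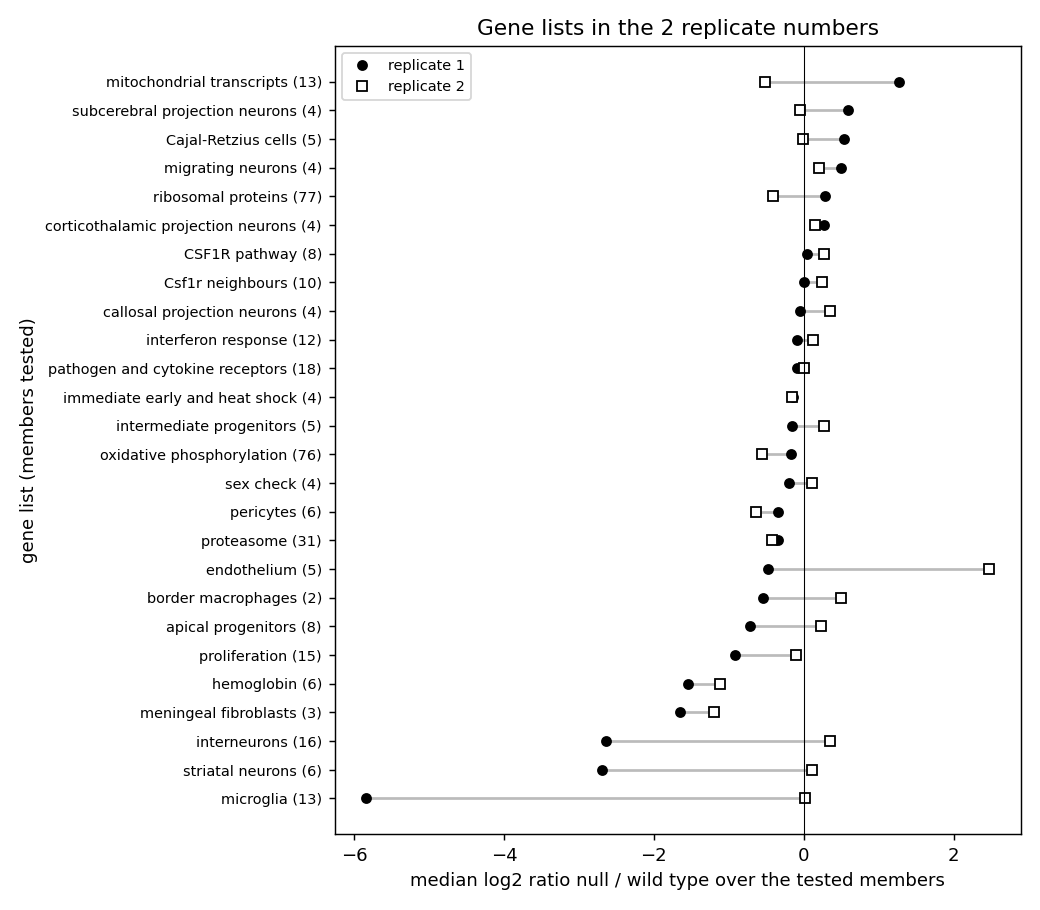
Median log2 ratio of null to wild type (horizontal axis, pseudocount of 0.5 UMI) over the tested members of each gene list (vertical axis, number of members tested in parentheses), within replicate 1 (filled circles) and replicate 2 (open squares). Hemoglobin (-1.54 and -1.11) and proteasome (-0.34 and -0.42) are left of 0 in both, while microglia, striatal neurons and interneurons are far left in replicate 1 only. Also left of 0 in both are meningeal fibroblasts (-1.64 and -1.19), pericytes (-0.34 and -0.64), oxidative phosphorylation (-0.18 and -0.56), proliferation (-0.91 and -0.11) and immediate early and heat shock genes (-0.14 and -0.16).

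Receptors for pathogens and cytokines, which the study examined as the entry points of inflammation, summed to 378 and 409 CPM in wild-type and 388 CPM in each library labelled null. Of the 18 of 34 tested, 1 was higher and 2 were lower at an unadjusted p under 0.05, close to the 4.37% and 7.68% of all genes. Cxcr4, the chemokine receptor gene that guides migrating interneurons and blood progenitors, had 333, 165, 158 and 107 UMIs (log2 change -0.83 ± 0.211 SE, edgeR, adjusted p = 0.281). Ifngr2, the most abundant member beside Itgb1, was at 90.6, 174, 147 and 134 CPM. Interferon response genes summed to 115 and 109 CPM in wild-type and 107 and 92.2 CPM in libraries labelled null. Of 12 tested, Ifitm3 (21, 16, 8 and 4 UMIs) and Xaf1 (7.91, 7.99, 5.72 and 4.21 CPM) were lower at an unadjusted p under 0.05, beside 7.68% of all genes (adjusted p = 0.380 and 0.317, edgeR). Immediate early and heat shock genes, which rise with handling, summed to 114, 110, 96.0 and 117 CPM.

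Beyond the lists the 2 replicate numbers had little in common. Across the 14509 genes the log2 ratios of null to wild type correlated at r = 0.127 between replicate 1 and replicate 2, genes not being independent replicates, and 59.1% of genes had the same sign. Libraries of the same replicate number were more alike than libraries of the same genotype. The SD over genes of the log2 difference was 0.573 and 0.506 between genotypes within replicates 1 and 2, against 0.738 between the wild-type libraries and 0.704 between those labelled null. At an unadjusted p under 0.05 1115 genes were lower and 634 higher in null (7.68% and 4.37%, edgeR), and DESeq2 called 47 of 12821 genes (0.367%), 16 of them higher.

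**Figure D5:**
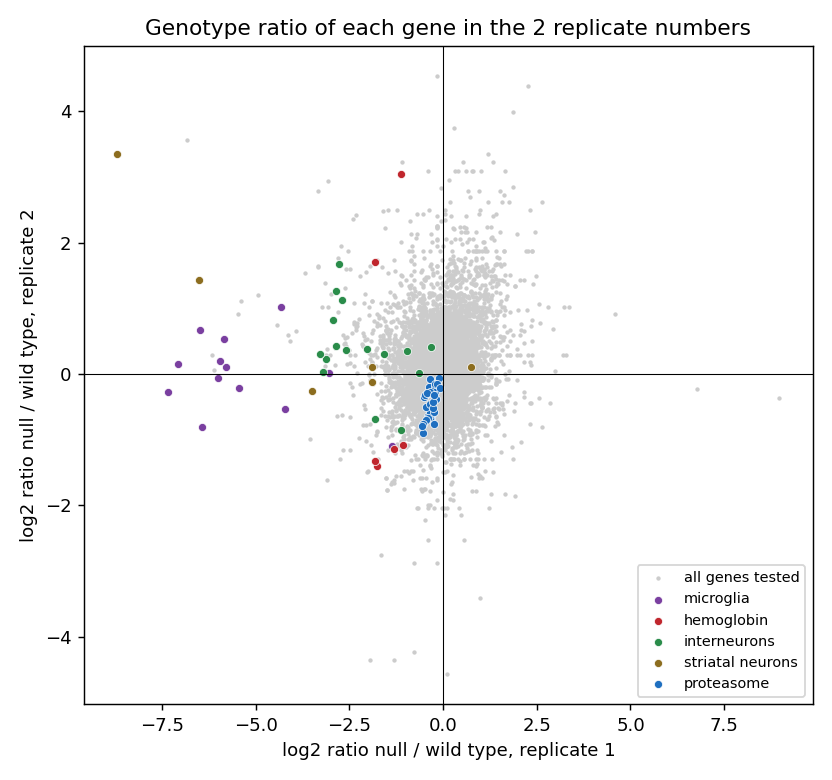
Log2 ratio of null to wild type within replicate 1 (horizontal axis) and replicate 2 (vertical axis) for each of the 14509 genes tested (grey), with 5 gene lists in colour. Most microglial, interneuron and striatal genes spread to the left on both sides of the line at 0, whereas proteasome genes and most hemoglobin genes lie in the lower left.

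After the alpha-globins, the 8 genes with the smallest p that were lower in both replicate numbers were Aldoc, Tuba1b, Tmem176b, Clu, Metrn, Gstm7, Prdx4 and Rtl8a, with edgeR adjusted p between 0.134 and 0.174. All 8 passed with DESeq2 and in edgeR without a filter on low counts. Aldoc, a glycolytic aldolase of glial and progenitor cells, was at 61.3 and 54.6 CPM in wild-type and 26.8 and 35.1 CPM in libraries labelled null (log2 change -0.93 ± 0.139 SE). Tuba1b, an alpha-tubulin gene with close paralogs, was at 445, 328, 239 and 165 CPM (-0.95 ± 0.150 SE). Clu, a secreted chaperone gene, was at 37.5, 31.6, 17.5 and 19.4 CPM, and Metrn, a secreted factor of radial glia, had 167, 116, 55 and 51 UMIs. In these genes both libraries labelled null lay below both wild-type ones, as in 18.5% of all genes. Their choice by small p and shared direction favours this.

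The 10 genes with the smallest p that were higher in both were Gm6588, Gm15991, Gm43507, Dqx1, 4932413F04Rik, 4921534H16Rik, Plxna4os2, 2410021H03Rik, Gm16958 and H2-T24, with edgeR adjusted p between 0.123 and 0.169. Of these 8 passed with DESeq2, and all 10 in edgeR without a filter on low counts. Most are annotated as antisense RNAs without a named function. Gm15991 had 180 and 145 UMIs in wild-type and 484 and 245 UMIs in libraries labelled null (log2 change 1.15 ± 0.161 SE), Dqx1, of a helicase family, was at 5.20, 7.65, 13.3 and 21.7 CPM (1.41 ± 0.206 SE), and 4921534H16Rik at 5.20, 2.94, 30.7 and 6.16 CPM. Of all genes tested 9.99% were long non-coding, against 1.26% of the 1115 lower and 32.3% of the 634 higher at an unadjusted p under 0.05. The lower genes were shorter, with a median length of 12.1 kb against 22.7 kb over all and 29.9 kb in the higher. They were also richer in the barcodes below the filter. The median log2 difference between those barcodes and nuclei of wild-type 1 was 0.38 for the lower genes, -1.04 for the higher and -0.43 over all, and of Csf1r-null 1 0.92, -1.90 and -0.56, values that share their nuclei with the comparison. Long non-coding RNA took 14.6% and 17.2% of UMIs in wild-type 1 and 2, 16.1% in Csf1r-null 1 and 21.0% in the library labelled Csf1r-null 2. Most of this was the single gene Malat1, at 117936, 149834, 134243 and 186999 CPM in the same order. The shares thus do not describe long non-coding genes at large. The part of these differences in RNA make-up in the counts of lower and higher genes was not tested.

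A pair of neighbouring genes on chromosome 17 was missing from wild-type 1 alone. Mettl4, a methyltransferase gene, had 0 UMIs in its nuclei and 424, 282 and 269 in wild-type 2, Csf1r-null 1 and the library labelled Csf1r-null 2, and 312 to 471 in the MIA libraries. Gm1976, next to it, had 1 UMI against 377, 184 and 264. They thus gave the highest null to wild-type ratios of replicate 1, where a count of 0 in wild-type 1 allows up to 0.233 CPM by the same 3 counts, and log2 ratios of -0.37 and -0.23 in replicate 2. In the barcodes below the filter of wild-type 1 Mettl4 had 20 UMIs, or 3.01 CPM. Neither passed the test (edgeR, adjusted p = 0.698 and 0.628).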

How the data were processed

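Nuclear RNA of 8 libraries of E15.5 cortical nuclei was used. The deposited values are raw UMI counts per gene and barcode, with no normalization, which the authors made with Cell Ranger on mm10. The file headers name version 3.1.0 for replicate 1 (31053 genes, 6794880 barcodes listed) and 6.0.1 for replicate 2 (32285 genes, called barcodes only), and 30406 genes were joined by Ensembl identifier. Barcodes under 500 UMIs or 200 genes were left out, and the UMIs of the rest summed per library. Doublets were kept. Their removal by Scrublet (scanpy 1.11.5, highest scores at 0.8% per 1000 nuclei) is an alternative, since its own threshold marked only 0.0999% to 2.88% of the saline libraries. Genes were tested with edgeR 4.0.16 in R 4.3.3 (quasi-likelihood, TMM, filterByExpr) over the 8 libraries with group and replicate number as terms, 3 residual degrees of freedom, and Benjamini-Hochberg adjustment over all genes at 0.05. Same-numbered libraries deviated together (correlations of 0.502 to 0.680 across genes), and the numbers also stand for the software version. Libraries come from separate embryos, and p-values measure the spread between these samples. On simulated counts with these groups and library sizes, edgeR found 144 of 199 genes changed 2-fold, with 10 false calls among 14261 genes. Those counts had the same gene means in all libraries and a fixed dispersion shared by all genes. They held no replicate effect and no library at odds with its label, so these rates need not hold for the real libraries. Log2 ratios within a replicate number used a pseudocount of 0.5 UMI. The SE given with an edgeR log2 change is its size divided by the square root of the F statistic, an approximation. The members and gene lists were chosen with earlier results of these data known. Genes named beside the lists are the 10 with the smallest p in each direction among those with the same sign in both replicate numbers, the 8 most extreme in each direction in replicate 1 with at least 100 UMIs, and the 2 most abundant of each list. Some of these are not reported here. Others were chosen after their values were seen, as were the excitatory genes that gate the control nuclei. Python 3.11.15 with numpy 2.4.6, scipy 1.17.1 and pandas 2.3.3 was used, and DESeq2 1.42.0 as an alternative. Gene positions are from GENCODE M21 on GRCm38.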

Additional observations from a re-analysis of the deposited data

Results flagged for a closer look

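The genotype difference of alpha-globin after saline differed from that after MIA by the test of the interaction in edgeR, by -2.07 for Hba-a1 and -1.93 for Hba-a2 on the log2 scale (adjusted p = 0.0248 for both). After MIA the genotype differences were 0.47 and 0.34. The 2 copies are near identical and count as a single observation.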

How the results depend on the processing

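With no replicate block 0 genes passed between the genotypes and 0 in the interaction, with 822 genes at an unadjusted p under 0.05 between the genotypes, and 0 passed in the 4 saline libraries alone without it, with 877. With the block, those 4 libraries gave 3 calls, the 2 alpha-globin genes and Hbb-bt. DESeq2 called 47 genes and edgeR without a filter on low counts 61, the 2 alpha-globin genes among them in both. With at least 1000 UMIs per nucleus the proteasome median was -0.47 and 61.4% of genes had the same sign in both replicate numbers. The cause of these shifts was not tested. Other scalings, doublet removal and removal of nuclei with interneuron or striatal UMIs left 2 to 3 calls, both alpha-globins included.

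Leaving out each saline library, the library labelled wild-type MIA 2, or the 2 whose microglial genes go against their labels (the other 3 MIA libraries were not left out) gave 0 calls (without Csf1r-null 1) to 238 (without wild-type 2), and 0 to 27 in the interaction. Without the library labelled Csf1r-null 2 the only call was Zfp503, a striatal gene high in wild-type 1. Medians ranged from -1.56 to -0.80 for hemoglobin, -0.47 to -0.26 for the proteasome, -0.56 to -0.098 for oxidative phosphorylation, -2.14 to 0.058 for interneurons, -3.79 to -0.0032 for striatal neurons and -0.80 to -0.25 for proliferation. Fitted log2 changes of microglial genes ranged from -2.92 to 0.51 for Csf1r, -9.17 to 0.44 for C1qa, -9.61 to 0.12 for C1qb, -8.01 to 0.091 for Cx3cr1, -4.65 to 0.97 for P2ry12, -7.83 to 0.46 for Fcrls, -8.04 to 0.47 for Tyrobp, -8.38 to 0.87 for Ctss and -7.97 to 0.98 for Siglech. They stayed below 0 for C1qc (-5.99 to -0.024), Aif1 (-1.97 to -0.96), Laptm5 (-4.51 to -0.69), Fcer1g (-2.96 to -0.33) and Ly86 (-8.73 to -0.38). The low ends leave out the library labelled Csf1r-null 2, and for genes at 0 UMIs in Csf1r-null 1 they depend on the prior count. The ends above 0 leave out Csf1r-null 1 (P2ry12 was at 0.10 without wild-type 1 too). With 2 libraries a group and few microglial UMIs, small changes could not be detected.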
